A study of Mus musculus with 20 samples.

Results

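The levels of 10 genes that mark pericytes and vascular smooth muscle cells, together called mural cells, were followed in the plantaris muscle of the mouse after sham surgery or mechanical overload (MOV). The genes were Rgs5, Kcnj8, Abcc9, Pdgfrb, Cspg4, Notch3, Mcam, Acta2, Myh11 and Tagln, and all 10 were found among the 54532 genes of the count tables, of which 30194 had at least 1 count. Rgs5 and Kcnj8 were selected on their measured levels, because they were lower after overload, so their differences between MOV and sham are given as a description with no test. The other 8 genes were taken as known markers of the same cells. They and the further gene lists below were chosen with earlier results of these data known. Their p-values and counts are therefore not free of selection. Each of the 10 had at least 1 count in all 20 libraries.

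Mural cells wrap the endothelial tubes of the vessels. Pericytes sit on capillaries, share a basement membrane with the endothelium and need the PDGF-B signal that endothelial cells release, whereas smooth muscle cells form the contractile coat of arterioles and larger vessels. In skeletal muscle, which is densely supplied with capillaries, both adjust blood flow to the work of the fibers, and none of the 10 genes is entirely restricted to them: Abcc9 is also used by muscle fibers, Mcam by endothelial cells, and Acta2 by activated fibroblasts.

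The study asked how miR-1, a microRNA of striated muscle, affects the growth of overloaded muscle, by injecting a lentivirus with either a control sequence (left plantaris) or a miR-1 mimic (right plantaris) into male C57BL/6J mice aged 5 months. Both muscles of a mouse were studied 10 days after either a sham operation or bilateral synergist ablation, which takes away part of the neighbouring calf muscles and thereby overloads the plantaris. Crossing surgery with virus gave 4 groups (control or mimic virus, each after sham or MOV) of 5 libraries, and all of them carried a lentivirus, so that no group was free of virus and injection. The virus was driven by a CMV promoter, which is active in many cell types, and carried TurboGFP as a reporter. Per the methods, the control and mimic muscles were opposite legs of the same mice, so the comparison of MOV with sham in control legs and the one in mimic legs were not independent of each other. RNA came from whole muscle, in which fewer cells of a type and less RNA per cell cannot be told apart.

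Total counts ran from 12036360 to 23056525 per library, with a median of 16940547.5. No 2 libraries of a group held the same counts (lowest chi-square per gene 9.52 over 40 pairs). The library that correlated least with the rest of its group was MOV mimic 4 (mean r = 0.870 over genes). Levels below are read counts scaled to the size of the library (CPM) after TMM normalization, which makes the libraries comparable, and log2 fold changes with SE come from edgeR's quasi-likelihood fit to the 10 libraries compared, with p-values adjusted by Benjamini-Hochberg over all genes tested and a threshold of 0.05.

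By level per length of transcript, averaged over the 20 libraries, Acta2 stood first with 58.9 CPM per kb of exon, followed by Rgs5 with 52.7 and Abcc9 with 25.9. Mcam had 14.1, Pdgfrb 6.07, Kcnj8 5.01, Myh11 3.65, Notch3 3.26 and Cspg4 2.92 CPM per kb. Tagln had 0.697 CPM per kb and between 1 and 55 counts in a library. Tagln, whose product transgelin binds actin, is usually among the abundant transcripts of smooth muscle. On GRCm38 the last 2480 bp of Tagln overlap Pcsk7, a neighbour on the other strand (mean 19.8 CPM), and whether the counting used strand is not given in the sources used here, so that reads over the overlap cannot be assigned and the level of Tagln is uncertain. Abcc9 and Notch3 overlap lncRNA genes on the other strand (5330439B14Rik for Abcc9, Gm38585 and Gm41568 for Notch3), and the same limit holds for them.

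**Figure D1:**
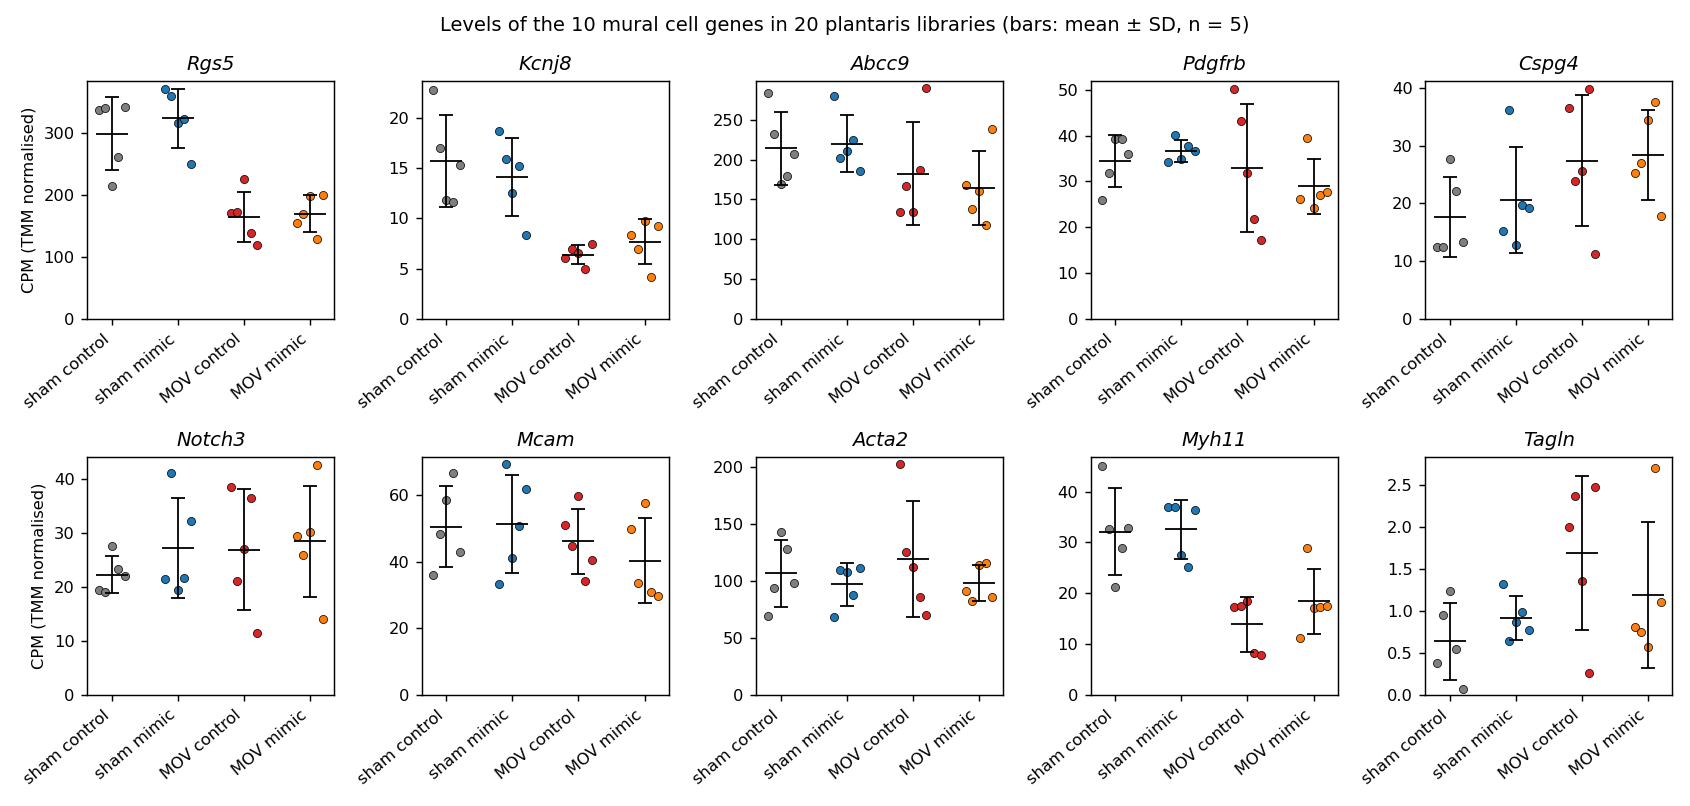
Level of each of the 10 genes (CPM, y axis from 0) in the 5 libraries of each group (x axis), with points for libraries and bars for the mean ± SD. The MOV points lie low for Rgs5, Kcnj8 and Myh11 and are mixed with the sham points for the other genes.

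The promoters of 3 genes are shown, because Rgs5 and Kcnj8 had lower means after overload while the mean of Acta2 was not lower, and Acta2 has the best known smooth muscle promoter. The windows, from RefSeq (GRCm38.p6), run from 250 bases before the annotated start of transcription to 50 bases after it. They are printed 5′ to 3′ on the strand of the gene. Capitals mark the CArG-like boxes of Acta2 (chr19:34255324-34255623, minus strand) and, in Kcnj8 (chr6:142571565-142571864, minus strand), the core TGGGAA that RBPJ, the DNA-binding partner of Notch receptors, can bind. The Rgs5 window (chr1:169655251-169655550, plus strand) held neither motif.
Acta2: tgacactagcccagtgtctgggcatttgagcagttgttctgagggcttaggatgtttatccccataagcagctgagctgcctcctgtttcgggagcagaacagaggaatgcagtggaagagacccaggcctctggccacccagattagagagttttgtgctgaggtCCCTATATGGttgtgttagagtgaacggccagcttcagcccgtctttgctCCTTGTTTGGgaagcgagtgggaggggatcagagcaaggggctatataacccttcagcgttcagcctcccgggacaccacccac
Kcnj8: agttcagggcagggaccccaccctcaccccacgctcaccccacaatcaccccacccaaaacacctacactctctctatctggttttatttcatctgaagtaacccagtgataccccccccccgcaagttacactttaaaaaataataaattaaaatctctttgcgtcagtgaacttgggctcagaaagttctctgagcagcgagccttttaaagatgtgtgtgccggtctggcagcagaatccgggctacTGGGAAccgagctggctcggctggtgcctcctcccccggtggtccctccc
Rgs5: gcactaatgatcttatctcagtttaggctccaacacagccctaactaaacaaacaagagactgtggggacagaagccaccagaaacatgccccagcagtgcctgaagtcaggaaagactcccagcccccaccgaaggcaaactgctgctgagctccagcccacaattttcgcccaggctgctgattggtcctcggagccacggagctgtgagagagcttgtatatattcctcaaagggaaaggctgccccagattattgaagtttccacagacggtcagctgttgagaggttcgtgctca

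The CArG box is the element that serum response factor binds, and smooth muscle contractile genes are known for it. Its strict form, with only A or T in the 6 central bases, was in 1.63% of 32851 RefSeq promoter windows, with chromosome 18 left out. It was in 0 of the 7 windows of the 10 genes that were at hand (Rgs5, Kcnj8, Abcc9, Cspg4, Notch3, Mcam and Acta2). Pdgfrb, Myh11 and Tagln had no window in this search, so Acta2 was the only contractile member covered. With 1 other base allowed in the centre, the box was in 9.98% of these windows and in 1 of the 7, that of Acta2. There it lay at bases 167 to 176 and 217 to 226 counted from the start of the window. The letters TGGGAA, searched on both strands (TTCCCA on the other), were in 25.6% of all windows and in 3 of the 7: at bases 251 to 256 of Kcnj8, 30 to 35 of Abcc9 and 224 to 229 of Acta2, where they overlap the second CArG-like box. These are matches of letters, and binding was not measured.

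Rgs5 encodes a GTPase-activating protein that damps signalling from G protein-coupled receptors and is a leading marker of pericytes. In replicates 1 to 5 it measured 338, 341, 214, 262 and 342 CPM in sham control and 171, 172, 226, 139 and 119 CPM in MOV control. In the mimic legs it measured 372, 360, 317, 323 and 250 CPM in sham and 155, 169, 198, 130 and 200 CPM in MOV. The MOV mimic libraries were all below the sham mimic libraries, and in the control legs 1 MOV library (226 CPM) lay above the lowest sham library (214 CPM). The means were 299 ± 58.6 (SD, n = 5) in sham control and 165 ± 40.6 in MOV control, a log2 fold change of -0.81 (SE 0.20). In mimic legs they were 324 ± 47.6 and 170 ± 29.6, a log2 fold change of -0.90 (SE 0.16).

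Kcnj8 encodes Kir6.1, the pore of the vascular ATP-sensitive potassium (KATP) channel, through which mural cells couple metabolism to vessel tone. It measured 22.7, 17.0, 11.8, 11.6 and 15.3 CPM in the sham control libraries and 6.09, 6.96, 6.53, 4.99 and 7.42 CPM in the MOV control libraries, which lay below all of the former. In the mimic legs the values were 18.7, 15.9, 12.5, 15.2 and 8.33 CPM in sham and 8.35, 6.96, 9.73, 4.12 and 9.23 CPM in MOV. Here sham mimic 5 (8.33 CPM) lay within the range of the MOV libraries, so that the groups overlapped. The log2 fold change was -1.26 (SE 0.21) in control legs, from a mean of 15.7 ± 4.54 to 6.40 ± 0.928 (SD, n = 5), and -0.85 (SE 0.27) in mimic legs, from 14.1 ± 3.91 to 7.68 ± 2.25. Beside these 2 genes stands a background of 439 of 14974 genes (2.93%) that did not overlap and were lower in MOV control, and of 303 of 14918 (2.03%) that were lower in MOV mimic. As both genes were chosen by this difference, nothing is read from it.

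Abcc9 encodes SUR2, the regulatory partner of Kir6.1 in vessels and of Kir6.2 in muscle fibers. Its mean was 214 ± 45.7 CPM (SD, n = 5) in sham control and 182 ± 64.2 in MOV control, with a log2 fold change of -0.20 (SE 0.22, edgeR adjusted p = 0.654). In mimic legs the fold change was -0.39 (SE 0.19, edgeR adjusted p = 0.393), from 220 ± 35.9 to 164 ± 46.0 CPM. The groups overlapped in both pairs of legs, and 1 library, MOV control 5, had the highest value of all 20 (290 CPM). Without it the log2 fold change of Abcc9 in control legs was -0.42, and without sham control 1 it was -0.067. Within each library, Kcnj8 had a median of 0.0734 counts per count of Abcc9 in sham control and 0.0417 in MOV control, with 0.0668 and 0.0498 in sham mimic and MOV mimic. The highest ratio in MOV control (0.0489) was below the lowest in sham control (0.0646), whereas the ratios of the mimic groups overlapped. This ratio contains Kcnj8 and is therefore a description too. No row of the tables was matched to the symbol of Kcnj11, which encodes Kir6.2, and it was not analysed here. Abcc8, the SUR1 subunit, stood at 6.60 ± 2.38 CPM after MOV and 4.36 ± 0.589 CPM after sham in control legs (edgeR adjusted p = 0.228).

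Pdgfrb, the receptor for PDGF-B that recruits and keeps pericytes, measured 25.9, 31.9, 39.4, 39.2 and 36.0 CPM in sham control and 50.3, 43.2, 31.8, 21.8 and 17.2 CPM in MOV control. The MOV control values spread to both sides of the sham values. The log2 fold change was -0.02 (SE 0.27, edgeR adjusted p = 0.982). In mimic legs Pdgfrb was at 36.7 ± 2.42 CPM (SD, n = 5) in sham and 28.9 ± 5.98 CPM in MOV, a log2 fold change of -0.31 (SE 0.14, edgeR adjusted p = 0.374; two-sided exact permutation p = 0.0397). That difference rests on 4 of the 5 MOV mimic libraries, since MOV mimic 2, with 39.4 CPM, was within the sham range. Of the 4 PDGF ligands and the sister receptor Pdgfra, 0 of 5 passed an unadjusted p of 0.05 in either pair of legs (background 9.15% lower and 9.06% higher in control legs, 6.08% and 7.31% in mimic legs). Pdgfra, with the smallest p of the 5, was at 38.7 ± 11.3 CPM after sham and 26.8 ± 10.7 CPM after MOV in control legs (edgeR adjusted p = 0.395). Pdgfb, the endothelial ligand of Pdgfrb, was at 41.6 ± 12.5 CPM in sham control and 49.1 ± 15.8 CPM in MOV control (edgeR adjusted p = 0.597).

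Cspg4 encodes NG2, a proteoglycan on the surface of pericytes. It had higher means in both MOV groups, with 17.6 ± 6.95 CPM (SD, n = 5) in sham control, 27.4 ± 11.3 in MOV control, 20.7 ± 9.17 in sham mimic and 28.4 ± 7.83 in MOV mimic. The groups overlapped, since MOV control 5 had the lowest level of all 20 libraries (11.3 CPM) and sham mimic 2 one of the highest (36.2 CPM). The log2 fold changes were 0.68 (SE 0.33, edgeR adjusted p = 0.296) in control legs and 0.50 (SE 0.28, edgeR adjusted p = 0.456) in mimic legs. Notch3, the Notch receptor that smooth muscle cells and pericytes use to mature, was at 22.3 ± 3.45, 26.9 ± 11.2, 27.2 ± 9.29 and 28.5 ± 10.2 CPM in the same order of groups. Its log2 fold changes were 0.32 (SE 0.28, edgeR adjusted p = 0.575) and 0.11 (SE 0.28, edgeR adjusted p = 0.899), and the former ran from 0.14 without MOV control 1 to 0.51 without MOV control 5. Of 13 other Notch pathway genes tested in control legs, edgeR called 0 and DESeq2 1 (background 6.1%), 1 was higher and 0 lower at an unadjusted p under 0.05 (9.06% and 9.15% of all genes), and the median log2 fold change was 0.015. The 1 gene was Heyl, a transcriptional target of Notch3 in mural cells, with 16.3 ± 5.32 CPM in MOV and 8.86 ± 3.10 CPM in sham (log2 fold change 0.92, SE 0.29, edgeR adjusted p = 0.125, DESeq2 adjusted p = 0.0451). In mimic legs Heyl was at 14.2 ± 6.56 and 13.1 ± 6.45 CPM (edgeR adjusted p = 0.885). There 1 of 12 Notch pathway genes was higher and 0 lower at an unadjusted p under 0.05 (7.31% and 6.08% of all genes), with a median of 0.16 and 0 called by either tool. This was Rbpj, the DNA-binding partner of the Notch receptors, with 58.5 ± 9.32 CPM in MOV mimic and 47.9 ± 6.87 CPM in sham mimic (log2 fold change 0.33, SE 0.14, edgeR adjusted p = 0.351). In MOV control Rbpj was at 39.1 ± 10.4 CPM, and its log2 fold change of MOV mimic against MOV control was 0.58 (SE 0.20, edgeR adjusted p = 0.999, unadjusted p = 0.0114).

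Mcam, also known as CD146, is an adhesion molecule of pericytes and endothelium. Its level was 50.5 ± 12.2 CPM (SD, n = 5) in sham control, 46.2 ± 9.80 in MOV control, 51.3 ± 14.8 in sham mimic and 40.4 ± 12.7 in MOV mimic, and the groups overlapped. The log2 fold changes after overload were -0.08 (SE 0.19, edgeR adjusted p = 0.848) and -0.31 (SE 0.23, edgeR adjusted p = 0.593).

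The fold changes of the 3 contractile genes differed in sign. Myh11, the myosin heavy chain of smooth muscle, measured 45.0, 32.6, 21.2, 29.0 and 32.7 CPM in sham control and 17.3, 17.4, 18.5, 8.15 and 7.78 CPM in MOV control. Every MOV control library was below every sham control library. The means were 32.1 ± 8.61 and 13.8 ± 5.37 CPM (SD, n = 5), a log2 fold change of -1.17 (SE 0.29). The adjusted p was 0.0713 with edgeR and 0.00365 with DESeq2 (two-sided exact permutation p = 0.00794, the smallest that 5 against 5 libraries can give).

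In the mimic legs Myh11 measured 37.0, 36.9, 27.5, 25.2 and 36.3 CPM in sham and 11.2, 29.0, 17.1, 17.2 and 17.4 CPM in MOV. MOV mimic 2 (29.0 CPM) lay above 2 sham libraries, and the other 4 MOV libraries lay below all of them. The log2 fold change was -0.79 (SE 0.23, edgeR adjusted p = 0.272, DESeq2 adjusted p = 0.0713, two-sided exact permutation p = 0.0238), and without MOV mimic 4, the library least like its group, it was -0.77 (edgeR adjusted p = 0.390). Myh11 was the 1 gene of the 8 tested with an unadjusted edgeR p under 0.05 in each pair of legs, where the p was 0.00140 in control and 0.00402 in mimic legs. Of all genes, 9.15% were lower and 9.06% higher by that measure in control legs, and 6.08% and 7.31% in mimic legs. Its edgeR adjusted p in control legs became 0.0386 without sham control 3 and 0.0175 without the filter on low counts, and over the alternatives without a replicate block, DESeq2 included, the adjusted p of Myh11 ran from 0.00365 to 0.168, with a log2 fold change from -1.30 to -0.996.

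Acta2, the smooth muscle actin, had 69.4, 93.9, 143, 128 and 97.7 CPM in sham control and 202, 125, 112, 85.6 and 70.2 CPM in MOV control. MOV control 1 was the highest of all 20 libraries and MOV control 5 among the lowest, and the groups overlapped. The log2 fold change was 0.21 (SE 0.28, edgeR adjusted p = 0.721) in control legs and 0.05 (SE 0.16, edgeR adjusted p = 0.911) in mimic legs. Without MOV control 1 the former became -0.08. Counts of Myh11 per count of Acta2 had a median of 0.335 in sham control, 0.111 in MOV control, 0.328 in sham mimic and 0.151 in MOV mimic. These ratios overlapped, since the highest in MOV control (0.166) was above the lowest in sham control (0.148), and the highest in MOV mimic (0.352) above the lowest in sham mimic (0.255). Tagln was at 0.634 ± 0.463 CPM in sham control and 1.69 ± 0.914 CPM in MOV control, with a log2 fold change of 1.43 (SE 0.66, edgeR adjusted p = 0.275), and the fold change in mimic legs was 0.40 (SE 0.55, edgeR adjusted p = 0.782).

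**Figure D2:**
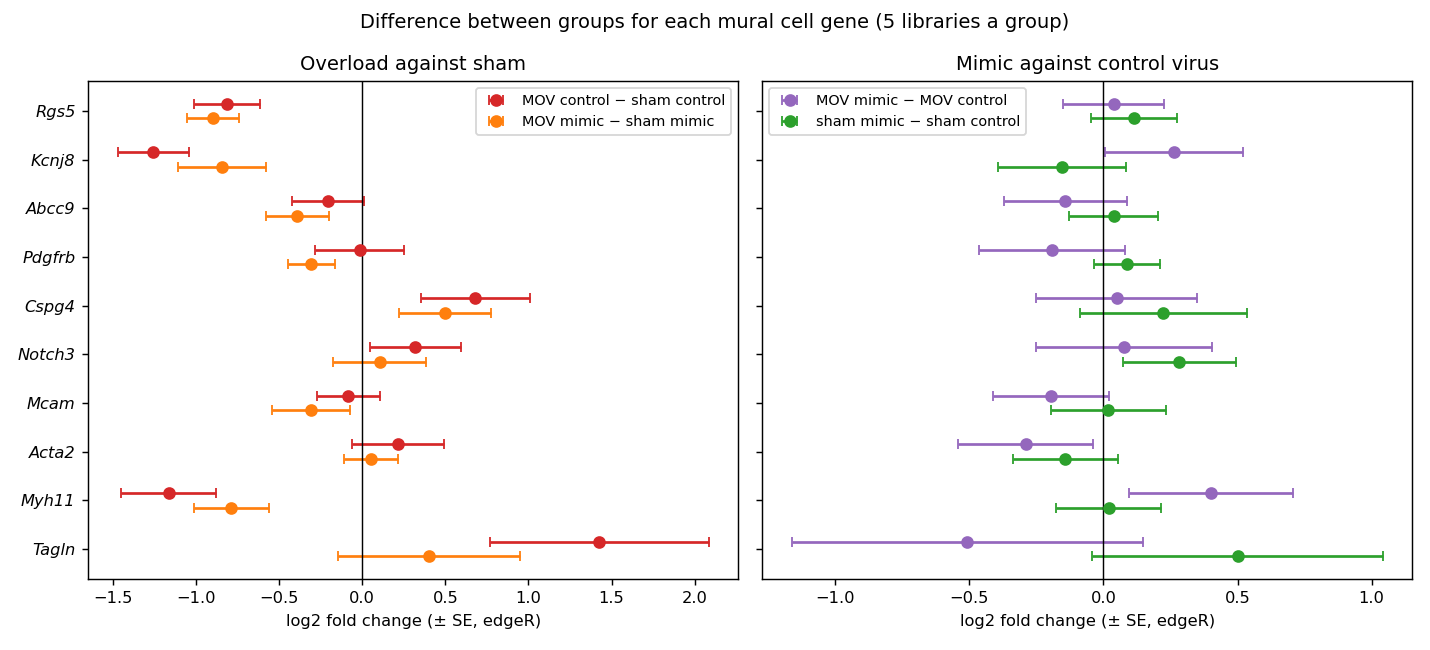
Log2 fold change ± SE (x axis) of each gene (y axis) after overload (left) and with the mimic (right), from edgeR with 5 libraries a group. After overload Myh11 lies at -1.17 and -0.79 while Acta2 lies at 0.21 and 0.05, and with the mimic the points stay between -0.51 and 0.50.

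Counted over the 8 genes not picked for this difference, though chosen with earlier results of these data known, edgeR called 0 in control legs. There it called 1 of 14974 genes (0.00668%). It gave 1370 genes (9.15%) with a lower and 1356 (9.06%) with a higher level in MOV an unadjusted p under 0.05. DESeq2 called 1 of the 8, Myh11, against 913 of all genes (6.1%). Myh11 was also the 1 gene of the 8 that did not overlap and was lower in MOV control (background 2.93%), and 0 were higher without overlap (background 1.94%). In mimic legs edgeR called 0 of the 8 and 0 of 14918 genes (0%), with 907 genes (6.08%) lower and 1090 (7.31%) higher at an unadjusted p under 0.05, and DESeq2 called 0 of the 8 and 1.49% of all genes. None of the 8 was free of overlap in mimic legs (background 2.03% lower and 0.811% higher). The median log2 fold change of these 8 genes was 0.10 in control legs and -0.13 in mimic legs, where the median of all genes tested was 0.04 and 0.02. Without TMM the median of all genes moved up by 0.19 in control legs and 0.24 in mimic legs, and in control legs Pdgfrb and Mcam then had higher rather than lower means in MOV.

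The comparison of mimic with control virus asks whether these genes differed between mimic and control legs. The study reported no rise of miR-1 with the mimic in sham muscle, so the comparison there could not show an effect of raised miR-1. In MOV muscle it reported a smaller fall of miR-1 with the mimic than with control virus. Control virus was always in the left leg and mimic in the right, so virus and side cannot be told apart. As the MOV and sham levels of Rgs5 and Kcnj8 chose them, these genes are left out of the tests of mimic against control too. In MOV muscles the log2 fold change of mimic against control over the other 8 genes ran from -0.51 for Tagln (SE 0.65) to 0.40 for Myh11 (SE 0.31), with a median of -0.17. By description, Rgs5 differed by 0.04 (SE 0.19) and Kcnj8 by 0.26 (SE 0.26). By edgeR 0 of the 8 were called, as were 0 of all 15220 genes (0%), and 0 of the 8 had an unadjusted p under 0.05, against 641 genes (4.21%) in all. In 0 of the 8 were the groups free of overlap (background 0.756%). Mcam was lower in the mimic library of each of the 5 replicate numbers, with 51.2 against 49.9 CPM in number 1 and 40.6 against 29.7 CPM in number 5. Its log2 fold change was -0.19 (SE 0.22, edgeR adjusted p = 0.999), and equal numbers are not stated to be the same mouse.

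In sham muscles the log2 fold change of mimic against control over the 8 ran from -0.14 for Acta2 (SE 0.20) to 0.50 for Tagln (SE 0.54), with a median of 0.06. Myh11 and Mcam each differed by 0.02 (SE 0.20 and 0.21), and by description Rgs5 differed by 0.11 (SE 0.16) and Kcnj8 by -0.15 (SE 0.24). By edgeR 0 of the 8 and 0 of 14746 genes (0%) were called, 0 of the 8 against 254 of all genes (1.72%) had an unadjusted p under 0.05, and 0 of the 8 were free of overlap (background 0.359%). The difference between the effects of overload in mimic and in control legs was estimated over all 20 libraries. Over the 8 it lay between -1.03 for Tagln (SE 0.88) and 0.37 for Myh11 (SE 0.38), and it was called for 0 of the 8 and for 0 of 16166 genes (0%; 426 genes, 2.64%, at an unadjusted p under 0.05).

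Among libraries of the same group, pairs of the 10 genes varied both together and against each other. With each library taken relative to its group mean on the log2 scale, 9 of the 45 pairs of genes had a Pearson r over 0.5 and 5 pairs one under -0.5 across the 20 libraries, which share their depth and base composition within a pair. Cspg4 and Notch3 varied together (r = 0.90), as did Pdgfrb and Acta2 (r = 0.71), Rgs5 and Kcnj8 (r = 0.66), Kcnj8 and Abcc9 (r = 0.66), and Rgs5 and Myh11 (r = 0.60). Abcc9 ran against Acta2 (r = -0.78), Notch3 (r = -0.78), Cspg4 (r = -0.71) and Pdgfrb (r = -0.67). These values are a description, since the share among all pairs of genes was not computed. The 20 libraries come from both legs of 10 mice, so they are not 20 independent points.

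**Figure D3:**
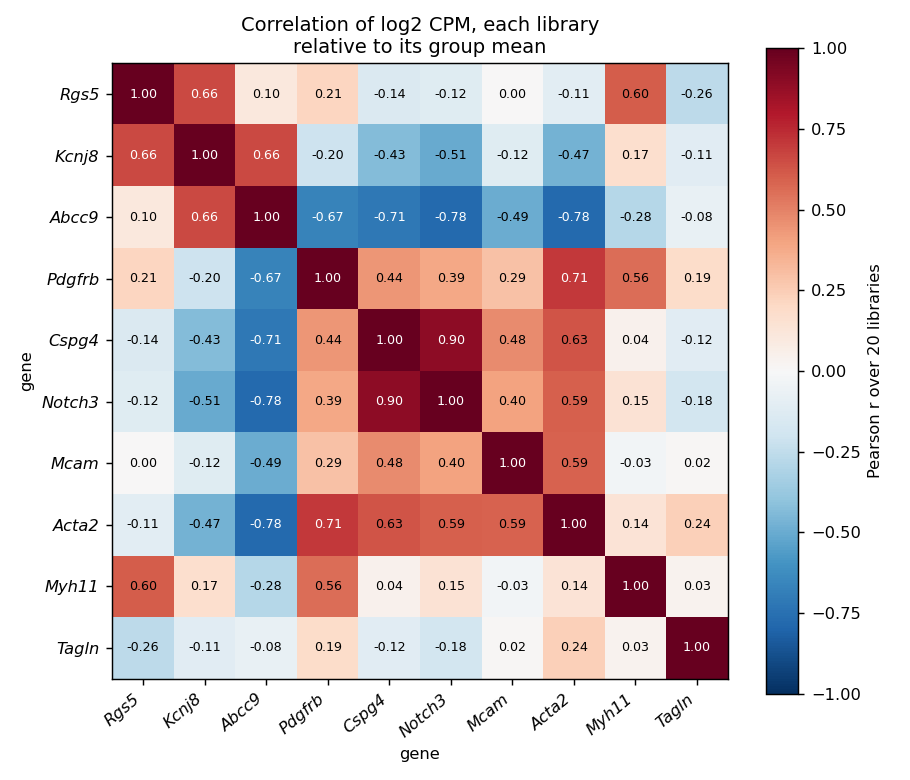
Pearson r between each pair of the 10 genes (both axes) over 20 libraries, each taken relative to its group mean on the log2 CPM scale, with red for positive and blue for negative values. Cspg4 and Notch3 share r = 0.90, and Abcc9 is blue against Acta2, Notch3, Cspg4 and Pdgfrb.

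Among 13942 genes compared over the 20 libraries in the same way, those most like Rgs5 were Sdpr (r = 0.888), Fam118a (r = 0.809), Eltd1 (r = 0.805), Pitpnc1 (r = 0.774) and Cav2 (r = 0.762). Sdpr encodes cavin-2 and Cav2 caveolin-2, both of the caveolae that endothelium is rich in, and Eltd1 is an adhesion receptor of vessels. For Kcnj8 they were Phtf2 (r = 0.908), Kbtbd13 (r = 0.904), Ntf3 (r = 0.895), Pdpr (r = 0.866) and Acad11 (r = 0.860). Kbtbd13 is a gene of muscle fibers, and Pdpr and Acad11 encode mitochondrial proteins.

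The base composition of the libraries moved with some of these genes. A GC index was computed for each library as the mean log2 CPM of the 3167 genes richest in GC (at least 55.1% of the transcript) less that of the 3167 genes poorest in it (at most 45.7%), among 12665 genes, relative to the mean of the 20 libraries. It ran from -0.33 to 0.21 in sham control, from -0.23 to -0.03 in sham mimic, from -0.17 to 0.24 in MOV control and from -0.28 to 0.19 in MOV mimic. The groups overlapped, but the medians were -0.02 and -0.03 in sham control and sham mimic and 0.14 and 0.13 in MOV control and MOV mimic, so that the index was higher by median after overload in both pairs of legs, as were the mean levels of Cspg4 and Notch3, while the mean of Abcc9 was lower. Within groups, Cspg4 (59.2% GC) had r = 0.77 with the index, Notch3 (59.6% GC) r = 0.77 and Abcc9 (46.2% GC) r = -0.58. For Kcnj8 (52.1% GC) r was -0.34, for Rgs5 (41.1% GC) -0.27 and for Myh11 (53.2% GC) -0.00076. The part of base composition in the levels of Cspg4, Notch3 and Abcc9 was not tested.

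**Figure D4:**
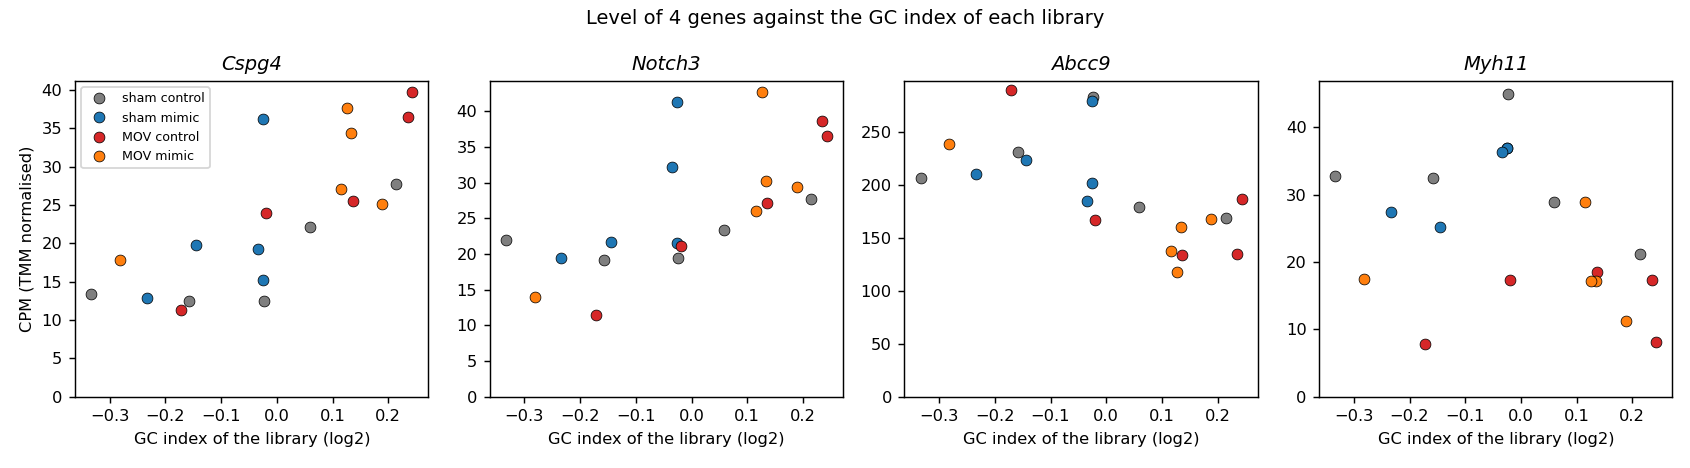
Level (CPM, y axis from 0) of Cspg4, Notch3, Abcc9 and Myh11 in each of the 20 libraries against the GC index of the library (x axis, log2), with a colour for each group. Cspg4 and Notch3 climb with the index and Abcc9 descends, while Myh11 has no such trend within groups (r = -0.00076).

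Among further mural markers, those with an unadjusted edgeR p under 0.05 were all lower in MOV. Of 20 further mural markers, 19 were tested in control legs. None was called by edgeR, 6 were lower and 0 higher at an unadjusted p under 0.05 (9.15% and 9.06% of all genes), and the median log2 fold change was -0.22. Vtn, which encodes vitronectin, was at 11.3 ± 4.47 CPM in MOV control and 21.6 ± 4.51 CPM in sham control (log2 fold change -0.89, SE 0.24, edgeR adjusted p = 0.0897, DESeq2 adjusted p = 0.0146). Gucy1b1, a subunit of the nitric oxide receptor, was at 4.23 ± 1.60 and 8.67 ± 2.00 CPM (log2 fold change -0.98, SE 0.28, edgeR adjusted p = 0.103, DESeq2 adjusted p = 0.0175). In mimic legs 5 were lower and 0 higher at an unadjusted p under 0.05 (6.08% and 7.31% of all genes), DESeq2 called 0, and the median was -0.37. The summed level of the 20 markers was 357 to 427 CPM in sham control and 285 to 354 CPM in MOV control, which did not overlap. It was 368 to 403 CPM and 250 to 356 CPM in sham mimic and MOV mimic, which did not overlap either. In control legs the gap was narrow, from 354.4 CPM in MOV to 356.6 CPM in sham. Of single genes, 2.93% in control legs and 2.03% in mimic legs were lower in MOV without overlap. No such share was computed for sums, and the sums were not taken without TMM. Art3, 1 of the 20, made up much of these sums and of their difference, with 134 ± 42.7 CPM in sham control and 92.4 ± 32.5 CPM in MOV control, and its own groups overlapped (edgeR adjusted p = 0.299).

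Of 12 further smooth muscle contractile genes, edgeR called 0 in either pair of legs. In control legs 3 were lower and 1 higher at an unadjusted p under 0.05 (9.15% and 9.06% of all genes), with a median log2 fold change of -0.02, and in mimic legs 4 were lower and 0 higher (6.08% and 7.31% of all genes), with a median of -0.27. Lmod1, the smooth muscle leiomodin that nucleates actin filaments, was at 4.70 ± 1.20 CPM in MOV control and 12.0 ± 4.88 CPM in sham control (log2 fold change -1.32, SE 0.29, edgeR adjusted p = 0.0591, DESeq2 adjusted p = 0.00107). In mimic legs it was at 5.41 ± 1.70 and 11.9 ± 3.47 CPM (log2 fold change -1.11, SE 0.27, edgeR adjusted p = 0.267, DESeq2 adjusted p = 0.0176), and the groups did not overlap in either pair. Mylk, the kinase of the myosin light chain, was at 15.7 ± 4.62 and 26.0 ± 3.66 CPM in the control legs (log2 fold change -0.68, SE 0.21, edgeR adjusted p = 0.117, DESeq2 adjusted p = 0.0323). The 1 higher gene was Actg2, an actin of visceral smooth muscle, with means of 5.45 ± 3.67 CPM after MOV and 1.87 ± 1.35 CPM after sham (edgeR adjusted p = 0.257). Of 3 tested regulators of these genes in the SRF and myocardin family, 1 was higher and 0 lower at an unadjusted p under 0.05 in control legs (9.06% and 9.15% of all genes). In mimic legs 0 were higher or lower (7.31% and 6.08% of all genes). The median log2 fold change was 0.048 in control legs and -0.047 in mimic legs. The 1 higher gene in control legs was Mrtfb, a coactivator of SRF, with 54.9 ± 7.65 CPM after MOV and 45.8 ± 4.95 CPM after sham (edgeR adjusted p = 0.216). Srf was at 90.2 ± 16.6 and 94.6 ± 17.3 CPM there (edgeR adjusted p = 0.935). In the R4 family of RGS proteins, to which Rgs5 belongs, 1 of 5 tested genes, Rgs4, was lower and 0 higher at an unadjusted p under 0.05 in control legs (9.15% and 9.06% of all genes), with 7.48 ± 2.35 CPM in MOV and 11.7 ± 2.43 CPM in sham (edgeR adjusted p = 0.211). In mimic legs 1 of 6 was higher and 0 lower (7.31% and 6.08% of all genes), with a median log2 fold change of 0.41. This was Rgs2, with 26.8 ± 10.0 CPM in MOV and 17.6 ± 6.15 CPM in sham (log2 fold change 0.65, SE 0.27, edgeR adjusted p = 0.340).

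Markers of other cells were counted in the same way, and edgeR called 0 of them between MOV and sham in either pair of legs. Of 10 endothelial markers, none of them at 0 in any group, 4 were lower and 0 higher at an unadjusted p under 0.05 in control legs (9.15% and 9.06% of all genes) and 6 and 0 in mimic legs (6.08% and 7.31%), with a median log2 fold change of -0.35 in both. Kdr, the main VEGF receptor, was at 29.5 ± 8.03 CPM in MOV control and 52.9 ± 10.7 CPM in sham control (log2 fold change -0.80, SE 0.20, edgeR adjusted p = 0.0763, DESeq2 adjusted p = 0.00804). Flt1, a second VEGF receptor, was at 20.9 ± 5.35 and 41.5 ± 10.9 CPM (log2 fold change -0.95, SE 0.23, edgeR adjusted p = 0.0679, DESeq2 adjusted p = 0.00495). In mimic legs Tek, the angiopoietin receptor, was at 17.0 ± 2.40 and 30.7 ± 2.14 CPM (log2 fold change -0.82, SE 0.13, edgeR adjusted p = 0.141, DESeq2 adjusted p = 7.25e-05). Cdh5, the cadherin of endothelial junctions, was at 54.5 ± 5.80 and 88.5 ± 17.3 CPM there (log2 fold change -0.66, SE 0.15, edgeR adjusted p = 0.260, DESeq2 adjusted p = 0.00997), and DESeq2 also called Kdr and Flt1 in mimic legs. The sum of the 10 was 407 to 481 CPM in sham control, 221 to 430 CPM in MOV control, 445 to 577 CPM in sham mimic and 333 to 371 CPM in MOV mimic, without overlap in the mimic legs. For this sum, too, no share over other sums was computed.

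Of 8 muscle fiber markers, 3 were lower and 1 higher at an unadjusted p under 0.05 in control legs (9.15% and 9.06% of all genes) and 3 and 0 in mimic legs (6.08% and 7.31%), and in control legs their sum ran from 121369 to 191598 CPM in sham control and from 89456 to 162922 CPM in MOV control. Myh4, the fastest myosin heavy chain, had a mean of 11588 CPM in MOV control and 35563 CPM in sham control (log2 fold change -1.59, SE 0.30, edgeR adjusted p = 0.0554, DESeq2 adjusted p = 2.46e-06). Mybpc2, a myosin-binding protein of fast fibers, was at 2987 and 4587 CPM (log2 fold change -0.59, SE 0.21, edgeR adjusted p = 0.156, DESeq2 adjusted p = 0.0429). The 1 higher gene was Myh1, the fast myosin heavy chain 2X, with means of 24129 CPM after MOV and 13679 CPM after sham in control legs (log2 fold change 0.84, SE 0.33, edgeR adjusted p = 0.198, DESeq2 adjusted p = 0.0710), and of 13864 and 16276 CPM in mimic legs (edgeR adjusted p = 0.877). Of 7 markers of satellite and regenerating cells, 3 were higher and 0 lower at an unadjusted p under 0.05 in control legs (9.06% and 9.15% of all genes), with a median log2 fold change of 1.18, and 1 was higher and 0 lower in mimic legs (7.31% and 6.08% of all genes), with a median of 0.52. Pax7, the transcription factor that defines satellite cells, was at 8.43 ± 3.16 CPM in MOV control and 3.83 ± 1.01 CPM in sham control (log2 fold change 1.17, SE 0.27, edgeR adjusted p = 0.0630, DESeq2 adjusted p = 0.00369). Ncam1, an adhesion molecule of satellite cells and denervated fibers, was at 39.1 ± 15.5 and 14.9 ± 7.67 CPM (log2 fold change 1.44, SE 0.38, edgeR adjusted p = 0.0809, DESeq2 adjusted p = 0.00659). Of 9 fibroblast markers, 2 were lower and 0 higher at an unadjusted p under 0.05 in control legs (9.15% and 9.06% of all genes), with a median log2 fold change of -0.36, and 1 was lower and 0 higher in mimic legs (6.08% and 7.31%), with a median of -0.14. Their sum overlapped widely, with 1869 to 9158 CPM in sham control and 2739 to 9423 CPM in MOV control, and Col1a1 and Col3a1, chains of fibrillar collagen, made up most of its mean (1581 and 3022 CPM in sham control, 2606 and 2989 CPM in MOV control). Gsn, which the list holds as a fibroblast marker, was at 218 ± 63.4 and 649 ± 166 CPM (log2 fold change -1.54, SE 0.23, edgeR adjusted p = 0.0551, DESeq2 adjusted p = 2.26e-07). Of 5 markers of activated fibroblasts, 1 was higher and 0 lower at an unadjusted p under 0.05 in each pair of legs (9.06% and 9.15% of all genes in control legs, 7.31% and 6.08% in mimic legs), with median log2 fold changes of 0.57 and 0.46. This was Tnc, the matrix protein tenascin C, with 223 ± 69.0 CPM after MOV and 83.1 ± 67.1 CPM after sham in control legs (edgeR adjusted p = 0.177) and 195 ± 18.7 against 91.9 ± 59.0 CPM in mimic legs (edgeR adjusted p = 0.327). Of 6 tested leukocyte markers, 0 were lower or higher by that measure in control legs (median -0.29), and 2 were higher and 0 lower in mimic legs (7.31% and 6.08% of all genes; median 0.45). These were Ptprc, which encodes the CD45 antigen of leukocytes, with 53.5 ± 27.3 CPM after MOV and 22.6 ± 12.6 CPM after sham (edgeR adjusted p = 0.295), and Cd3e of the T cell receptor complex, with 4.90 ± 1.64 and 2.62 ± 0.534 CPM (edgeR adjusted p = 0.298). The part of these shifts in the levels of the mural genes was not tested.

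**Figure D5:**
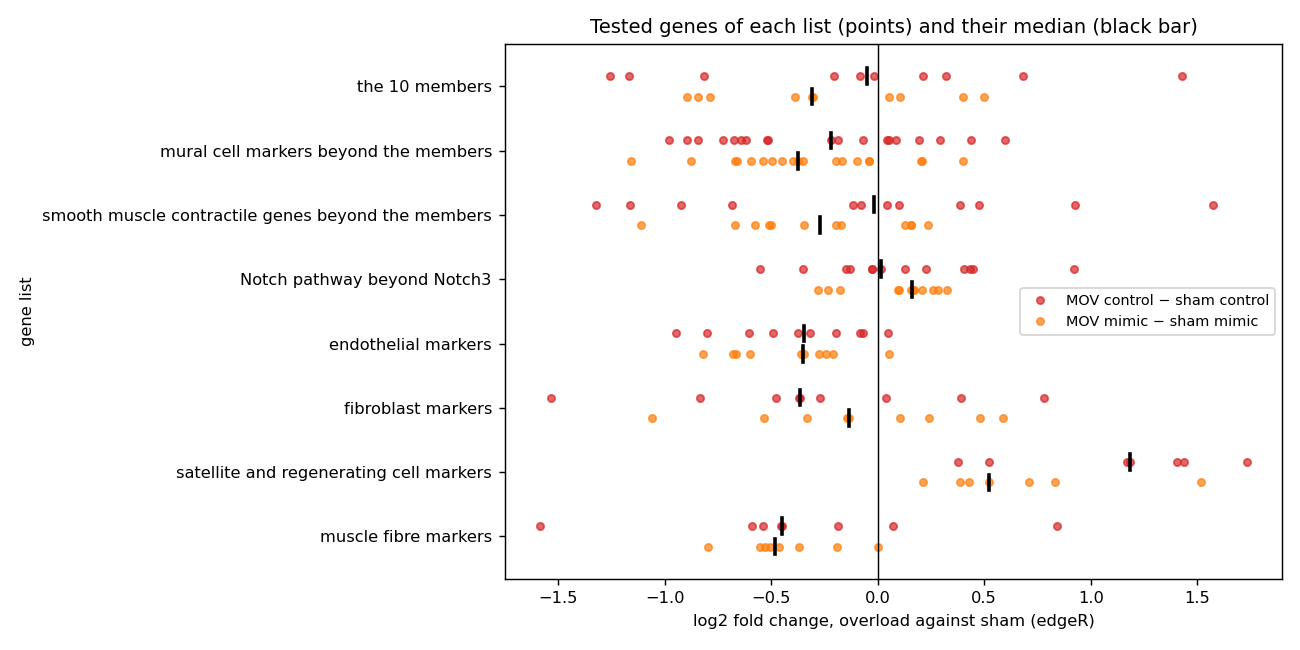
Log2 fold change after overload (x axis) of the tested genes of 8 lists (y axis), in control legs (red) and mimic legs (orange), with a black bar at the median of each list. The endothelial medians lie at -0.35 in both, the medians of the further mural markers at -0.22 and -0.37, and those of the satellite cell markers at 1.18 and 0.52.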

How the data were processed

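RNA-seq libraries from plantaris muscle were analysed, 5 in each of 4 groups, with groups and replicate numbers taken from the sample labels. The files deposited by the authors hold unnormalized read counts for each Ensembl gene, with control legs and mimic legs in separate tables. The study's methods and processing notes give trimming (Trim Galore 0.6.10 with cutadapt 4.4), alignment to GRCm38 with HISAT2 2.0.5 and counting with featureCounts 1.5.0-p3. The annotation release and the strand setting are not given in the sources used here. Rows were matched to symbols by Ensembl ID, and 32640 of 54532 had one.

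Counts were normalized by TMM and tested with the quasi-likelihood test of edgeR 4.0.16 (R 4.3.3), after filterByExpr, on the 10 libraries of each comparison and on all 20 for the interaction of surgery and virus. Tests were two-sided, with Benjamini-Hochberg adjustment over all genes tested and a threshold of 0.05. Single genes were also compared by exact permutation of CPM over libraries (32 tests on the 8 members not selected on their levels, of which 3 had p under 0.05). CPM without TMM was an alternative for the levels, and the other alternatives were DESeq2 1.42.0, its size factors within edgeR, no filter on low counts, a replicate block, 1 fit over all 20 libraries, and omission of each library in turn. Log2 CPM values used a prior count of 2, and the search for like genes took genes with a mean of at least 1 CPM. Lengths are unions of exons. The edgeR step was tested on simulated data for MOV control against sham control (14974 genes), where it recovered 62% of 100 genes changed by 2-fold and 95% of 100 changed by 4-fold, with 3 false calls; DESeq2 recovered 77% and 97%, with 25 false calls.

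Total counts of 12036360 to 23056525 limit the precision for Tagln most, with 1 to 55 counts a library. The members and the gene lists were chosen with earlier results of these data known. The 10 members are named throughout, and from the lists those called by DESeq2 and some of the 3 with the smallest unadjusted p in MOV control against sham control are given. Rbpj, Cd3e, Art3, Col1a1 and Col3a1 were named after their values were seen. The p-values measure the spread between libraries, 1 for each muscle.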

Additional observations from a re-analysis of the deposited data

Results flagged for a closer look

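Among the 40 sets made by 10 genes and 4 groups, 2 held a library that stood apart from the other 4 by Dixon's ratio, where chance gives about 1 in 20 sets. Pdgfrb in MOV mimic 2 was at 39.4 CPM, with the next library at 27.7 CPM and the lowest at 24.2 CPM. Tagln in MOV mimic 4 was at 2.70 CPM, with the next library at 1.10 CPM and the lowest at 0.565 CPM.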

How the results depend on the processing

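Of the 350 values for single genes under the settings that kept all libraries, 343 kept their sign and their side of the threshold and 3, all for Myh11 after MOV in control legs, passed it. The other 4 came from CPM without TMM: 2 differences in mean after overload in control legs changed sign, to 3.86 CPM for Pdgfrb (-1.61 with TMM) and 2.13 CPM for Mcam (-4.35 with TMM), and 2 in mimic legs moved by more than the pooled SD of the libraries in the 2 groups, to -114 CPM for Rgs5 (SD 39.6 CPM) and -1.97 CPM for Pdgfrb (SD 4.56 CPM). In control legs DESeq2 called 913 genes (1 of the 8 tested members), no filter on low counts 388 (1) and all 20 libraries in the fit 36; in mimic legs DESeq2 called 223, no filter 1 and all 20 libraries 3. For MOV mimic against MOV control DESeq2 called 3 genes and the fit to all 20 libraries 1, and for the interaction DESeq2 called 1. The causes of these moves were not tested.

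A replicate block on equal numbers gave 1 (control legs) and 0 (mimic legs) calls after overload with edgeR and 0 for the other comparisons. With DESeq2 the block gave 722 (1 member, Myh11) and 114 genes after overload, 127 for MOV mimic against MOV control, 5 for the interaction and 0 in sham. Deviations of equal-numbered mimic and control libraries correlated at 0.0727 to 0.389 in MOV (5 of 5 best with their own number) and 0.00870 to 0.767 in sham (3 of 5), and the labels do not state that a number marks a mouse. Between MOV and sham equal numbers join different mice, with a mean r of -0.104 in control and -0.112 in mimic legs (0 of 5 best with their own number in each), so that the block is no pairing there.

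Leaving out each library in turn gave 0 to 426 genes (0 to 1 members) after overload in control legs, with 426 without sham control 3 and 318 without MOV control 5, and 0 to 101 in mimic legs, with 101 without MOV mimic 5. Signs turned for several differences. After overload in control legs the log2 fold change ran from -0.23 to 0.15 for Pdgfrb, -0.20 to 0.031 for Mcam and -0.079 to 0.36 for Acta2, and in mimic legs from -0.10 to 0.30 for Notch3, -0.047 to 0.11 for Acta2 and -0.15 to 0.58 for Tagln. For MOV mimic against MOV control it ran from -0.070 to 0.18 for Rgs5, -0.31 to 0.069 for Abcc9, -0.36 to 0.022 for Pdgfrb, -0.15 to 0.21 for Cspg4 and -0.12 to 0.25 for Notch3. For sham mimic against sham control it ran from -0.29 to 0.028 for Kcnj8, -0.077 to 0.17 for Abcc9, -0.071 to 0.46 for Cspg4, -0.11 to 0.15 for Mcam, -0.26 to 0.0015 for Acta2 and -0.088 to 0.18 for Myh11. The interaction ran from -0.17 to 0.062 for Rgs5, -0.35 to 0.040 for Abcc9, -0.41 to 0.12 for Cspg4 and -0.29 to 0.13 for Acta2. Differences that kept their sign also moved. For Tagln the range was -1.07 to -0.33 in MOV mimic against MOV control and 0.22 to 0.91 in sham mimic against sham control. Myh11 ran from 0.18 to 0.55 in MOV mimic against MOV control, and Cspg4 from 0.36 to 0.79 after overload in mimic legs. The interaction ran from -1.57 to -0.74 for Tagln and from 0.16 to 0.52 for Myh11.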
